A study of Mus musculus with 22 samples.

Results

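Adgre1, Mgl2, Ccr2, Ly6c2, Tgfbi, F13a1, Ly86 and Ctss are 8 genes of monocytes and macrophages, among the 47311 mouse genes to which the deposited transcripts could be paired. They were chosen with results of these libraries known, and Adgre1, Tgfbi and Mgl2 had been noted for much higher RNA in Arid1a KO granulocyte/macrophage progenitors. For KO against WT in that population the values of all 8 genes are therefore given as a description, with no test, and the WT GMP libraries are tested against other WT populations only for the 5 genes that had not been noted in this way. Each gene was followed as the sum of its transcripts in 22 RNA-seq libraries of cells sorted from mouse bone marrow. Of these, 4 held long-term hematopoietic stem cells (LT-HSC, 2 WT and 2 KO), and 18 held common myeloid progenitors (CMP), granulocyte/macrophage progenitors (GMP) and megakaryocyte/erythroid progenitors (MEP) of 3 WT mice (numbers 300, 305 and 309) and 3 KO mice (301, 304 and 308), each of which gave all 3 populations. WT mice were Arid1a f/f;Mx1-Cre- and KO mice Arid1a f/f;Mx1-Cre+, bred from f/f mice that had been backcrossed to the C57BL/6 strain for 5 generations. In the f/f allele, which both genotypes carried, loxP sites flank exon 9 of Arid1a, a subunit of the SWI/SNF chromatin remodelling complex. The Cre recombinase is driven by the interferon-inducible Mx1 promoter, which is not restricted to blood cells. Mice of both genotypes were given poly(I:C), an RNA mimic that induces interferon, at an age of 8 to 14 weeks. They received 5 doses of 300 µg on alternate days, and cells were sorted 4 weeks later.

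Monocytes arise in the bone marrow from myeloid progenitors that pass through the CMP and GMP gates, leave for the blood, and can become macrophages in tissues. The transcription factors PU.1 (Spi1), IRF8 and KLF4 act along this path, while MEPs give rise to red cells and platelets. Of the 8 genes, 4 encode proteins of the cell surface: Adgre1 (F4/80, an adhesion receptor used as a macrophage marker), Mgl2 (CD301b, a lectin of macrophages and dendritic cells), Ccr2 (the receptor for the chemokine CCL2, by which monocytes leave the marrow) and Ly6c2 (a Ly6C antigen that marks inflammatory monocytes). The others encode the secreted matrix protein TGFBI, the A subunit of coagulation factor XIII (F13a1), MD-1 (Ly86, the partner of the receptor CD180) and cathepsin S (Ctss, a lysosomal protease that trims the invariant chain of MHC class II).

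Each library had between 40804031 and 65930737 estimated counts on genes. In counts scaled to the library total (CPM), Arid1a itself was lower in every KO library than in every WT library of the same population, with log2 fold changes of -1.14 (LT-HSC), -0.40 (GMP), -0.22 (CMP) and -0.14 (MEP). In TPM, which are scaled for transcript length too, the Arid1a ranges overlapped in CMP and MEP. In the precursors, 8 of 18 genes of a tissue macrophage list stayed under 1 TPM in all 18 libraries, with at most 0.0343 TPM of Marco. LT-HSC WT replicate 2 stood apart with 2595 summed TPM of 8 late neutrophil genes, against 371 to 451 in the other 3 LT-HSC libraries. LT-HSC KO replicate 2 stood apart with 3365 summed TPM of 4 eosinophil genes, against 39.4 to 217. In such bulk samples, fewer cells of a type and less RNA per cell cannot be told apart.

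Adgre1 (ENSMUSG00000004730) lies on chromosome 17 from 57358691 to 57483527, Mgl2 (ENSMUSG00000040950) on chromosome 11 from 70130329 to 70137550, Ccr2 (ENSMUSG00000049103) on chromosome 9 from 124101950 to 124113557 and Ly6c2 (ENSMUSG00000022584) on chromosome 15 from 75108158 to 75111970 (GENCODE vM21, GRCm38). Chromosome 13 holds 3 of the other genes, Tgfbi (ENSMUSG00000035493) from 56609523 to 56639562, F13a1 (ENSMUSG00000039109) from 36867178 to 37050244 and Ly86 (ENSMUSG00000021423) from 37345208 to 37419036. Ctss (ENSMUSG00000038642) lies on chromosome 3 from 95526786 to 95556403 and is the only one of the 8 that overlaps another annotated gene, the pseudogene Hmgb1-ps5.

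Promoter windows from 250 bases before to 50 after the start were taken from RefSeq (GRCm38.p6) for the 7 genes that matched an entry. They were searched on both strands for the cores of 3 motifs of myeloid regulation: GAGGAA of PU.1, TTGCNNAA of C/EBP factors and GAAANNGAA of the interferon-stimulated response element. GAGGAA was present in 28.3% of 32851 promoter windows of all genes, TTGCNNAA in 10.8% and GAAANNGAA in 8.56%. Among the 7 genes, Mgl2, Ly6c2, F13a1 and Ctss held GAGGAA, Tgfbi, Ccr2, Ly86 and Ctss held GAAANNGAA, and none held TTGCNNAA. The 250 bases before the start are shown for 2 genes with higher RNA in KO precursors (Tgfbi and Mgl2), 2 with lower RNA (F13a1 and Ly6c2) and the one that held both motifs (Ctss), 5′ to 3′ on the strand of the gene, with matches in capitals.
Tgfbi, chr13:56609336-56609585, plus strand: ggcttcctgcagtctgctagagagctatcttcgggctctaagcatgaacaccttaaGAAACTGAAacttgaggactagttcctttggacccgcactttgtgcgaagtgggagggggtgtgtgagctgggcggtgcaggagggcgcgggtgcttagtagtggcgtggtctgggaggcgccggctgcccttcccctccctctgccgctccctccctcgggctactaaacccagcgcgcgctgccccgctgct
Mgl2, chr11:70130107-70130356, plus strand: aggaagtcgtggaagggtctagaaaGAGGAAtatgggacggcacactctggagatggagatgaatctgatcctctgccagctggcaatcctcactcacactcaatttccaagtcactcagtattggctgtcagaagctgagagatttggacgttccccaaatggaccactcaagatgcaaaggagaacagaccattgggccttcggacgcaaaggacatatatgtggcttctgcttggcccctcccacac
F13a1, chr13:37050245-37050494, minus strand: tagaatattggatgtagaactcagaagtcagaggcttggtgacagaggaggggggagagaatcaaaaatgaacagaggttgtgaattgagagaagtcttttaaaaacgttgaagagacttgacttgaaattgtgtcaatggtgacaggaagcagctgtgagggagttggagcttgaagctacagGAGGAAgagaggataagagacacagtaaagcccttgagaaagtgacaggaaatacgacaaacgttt
Ly6c2, chr15:75111972-75112221, minus strand: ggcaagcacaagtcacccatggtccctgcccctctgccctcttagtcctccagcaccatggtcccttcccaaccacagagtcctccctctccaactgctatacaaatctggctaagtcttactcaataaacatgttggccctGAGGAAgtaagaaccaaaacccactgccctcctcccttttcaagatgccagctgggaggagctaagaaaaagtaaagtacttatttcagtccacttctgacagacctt
Ctss, chr3:95526536-95526785, plus strand: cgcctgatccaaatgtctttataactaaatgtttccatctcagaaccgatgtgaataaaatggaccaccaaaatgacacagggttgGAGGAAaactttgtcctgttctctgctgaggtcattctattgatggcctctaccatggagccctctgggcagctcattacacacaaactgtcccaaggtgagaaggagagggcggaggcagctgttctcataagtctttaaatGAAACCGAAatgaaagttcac
The capitals mark GAAACTGAA in Tgfbi, GAGGAA in Mgl2, F13a1 and Ly6c2, and both GAGGAA and GAAACCGAA in Ctss. A match is a run of letters and was not tested for binding.

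In WT mice the 8 genes were carried by CMPs and GMPs and were nearly absent from MEPs, but they did not share one pattern between CMP and GMP. Levels are given in TPM, so that they can be compared between genes. Adgre1 was the lowest of the 8 in WT CMPs, at 0.899 ± 0.168 TPM (SD, n = 3), and Mgl2 followed at 1.52 ± 0.0768. Tgfbi had 5.88 ± 1.42 TPM there, Ctss 30.3 ± 10.4 and Ccr2 32.0 ± 11.3. The most abundant were Ly86 at 61.9 ± 23.6 TPM, Ly6c2 at 116 ± 35.9 and F13a1 at 116.4 ± 40.2. The means of Ctss and Ccr2, and those of Ly6c2 and F13a1, differed by less than the SD of either gene. In WT CMPs, mouse 300 had the lowest level of the 3 mice for F13a1, Ly6c2, Ly86, Ccr2, Ctss and Adgre1.

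From WT CMP to WT GMP, Ly6c2 rose from 74.6, 137 and 136 TPM in mice 300, 305 and 309 to 1256, 1298 and 1072 TPM. Its log2 fold change was 3.56 (SE 0.19, edgeR adjusted p = 2.60e-06, fitted over the precursor libraries with a term for each mouse). At a false discovery rate (FDR) under 0.1, 21.0% of the 17476 genes tested were higher in WT GMP than in WT CMP and 24.2% lower. Ctss fell, from 18.6, 33.7 and 38.6 TPM to 7.46, 11.4 and 11.2 TPM, with a log2 fold change of -1.40 (SE 0.24, edgeR adjusted p = 0.00186). Ly86 was also lower, from 34.6, 74.0 and 76.9 TPM to 29.2, 46.1 and 46.2 TPM, a log2 fold change of -0.40 (SE 0.11, edgeR adjusted p = 0.0191), with ranges that overlapped between the populations. The call for Ly86 was lost without mouse 305 (log2 fold change -0.29, edgeR adjusted p = 0.107) or without mouse 309 (-0.33, 0.230), and without a term for the mouse (-0.45, 0.269). F13a1, with a log2 fold change of 0.20 (SE 0.15, edgeR adjusted p = 0.322), and Ccr2, with 0.21 (SE 0.11, edgeR adjusted p = 0.186), did not pass the test. The 3 genes chosen on their GMP values had log2 fold changes, WT GMP over WT CMP, of 2.37 (Adgre1), 4.46 (Mgl2) and 0.81 (Tgfbi), given without a test because the WT GMP libraries had been used to choose them.

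All 8 genes were lower in WT MEP than in WT CMP, where 38.0% of the 17476 genes tested were lower. Their log2 fold changes ranged from -3.33 (Mgl2, SE 0.49) to -8.08 (F13a1, SE 0.22), with edgeR adjusted p-values between 3.48e-08 (Ly86) and 0.000273 (Mgl2). WT MEPs held at most 0.0407 TPM of Adgre1, 0.163 of Tgfbi, 0.209 of Mgl2 and 0.399 of F13a1. Ccr2, Ly86 and Ctss stayed under 1 TPM there as well, and only Ly6c2 lay above it, at 2.83 ± 0.289 TPM (SD, n = 3). F13a1, Ccr2, Ly86, Ctss and Ly6c2 were also higher in WT GMP than in WT MEP, as were 36.5% of the 17476 genes tested, and their log2 fold changes ran from 4.02 (Ctss, SE 0.33, edgeR adjusted p = 6.21e-06) to 8.44 (Ly6c2, SE 0.26, edgeR adjusted p = 1.91e-08). Levels of LT-HSC were not set against those of the precursors, since their libraries were made with another kit.

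**Figure D1:**
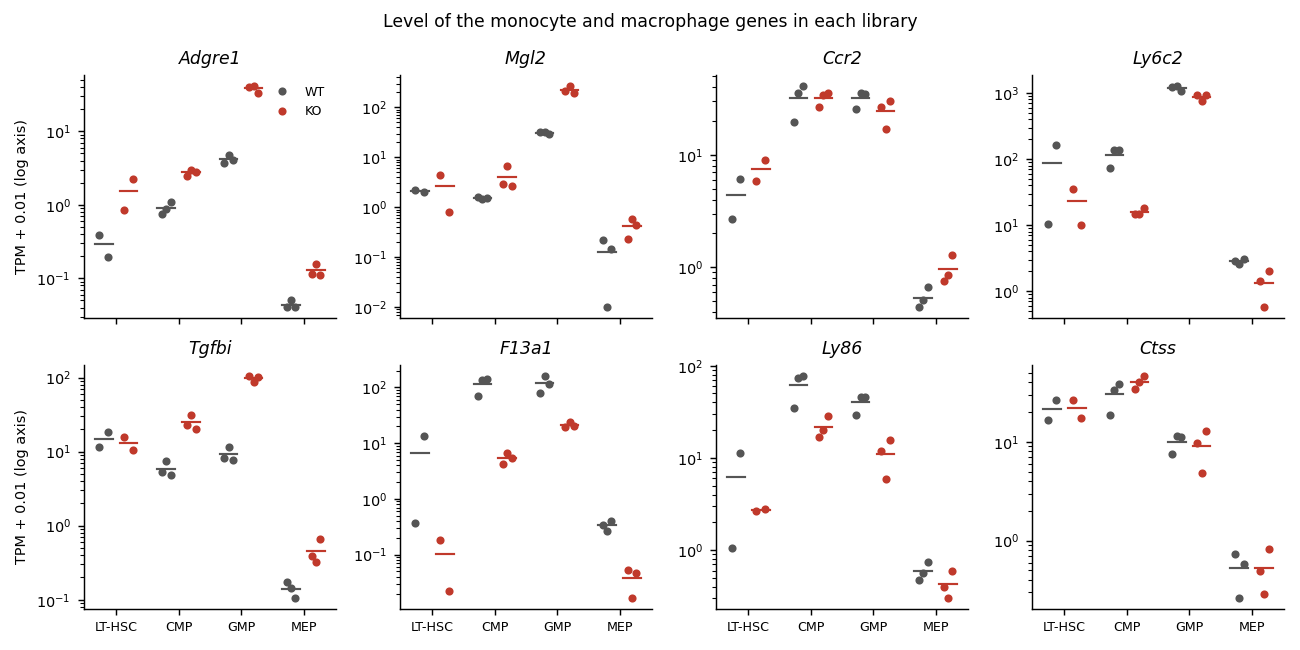
Level of each gene in every library, as TPM + 0.01 on a log axis, by population and genotype; points are libraries (WT grey, KO red) and lines are group means. Adgre1, Mgl2 and Tgfbi lie higher in all KO than in all WT libraries of CMP, GMP and MEP, and F13a1 and Ly6c2 lie lower.

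In GMPs, the population in which the set had been noted, Adgre1, Mgl2 and Tgfbi lay far above WT in every KO library, F13a1, Ly86 and Ly6c2 lay below WT in every KO library, and Ccr2 and Ctss overlapped. Adgre1 had 3.64, 4.71 and 4.06 TPM in the GMPs of WT mice 300, 305 and 309, and 40.2, 41.7 and 32.9 TPM in those of KO mice 301, 304 and 308, a ratio of means of 9.25 and a log2 fold change of 3.37 (SE 0.12). Mgl2 had 32.1, 32.5 and 29.4 TPM in WT and 213, 273 and 191 TPM in KO, a ratio of 7.21 and a log2 fold change of 3.11 (SE 0.13). Tgfbi had 8.29, 11.6 and 7.69 TPM in WT and 105, 87.2 and 102 TPM in KO, a ratio of 10.6 and a log2 fold change of 3.56 (SE 0.14). For each of the 3 genes the lowest KO library lay several times above the highest WT library.

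F13a1 went the other way, with 81.2, 159 and 114 TPM in WT GMPs and 19.7, 23.7 and 20.3 TPM in KO GMPs, a log2 fold change of -2.32 (SE 0.21). Ly86 had 29.2, 46.1 and 46.2 TPM in WT and 11.9, 5.89 and 15.7 TPM in KO, a log2 fold change of -1.71 (SE 0.31). Ly6c2 was the most abundant of the 8 in both genotypes, with 1256, 1298 and 1072 TPM in WT and 942, 766 and 939 TPM in KO, a log2 fold change of -0.32 (SE 0.085). Ccr2, at 32.0 ± 5.43 TPM in WT and 24.4 ± 6.70 in KO (SD, n = 3 each), and Ctss, at 10.03 ± 2.22 TPM in WT and 9.12 ± 4.04 in KO (SD, n = 3 each), had KO libraries on both sides of WT libraries. The GMPs of KO mouse 304 had the lowest Ly86, Ctss and Ccr2 of the 6 libraries, and that library also had the highest sum of 8 late neutrophil genes, 1949 TPM against 708 and 829 in the other KO libraries and 179 to 376 in WT. Those late neutrophil genes did not move together, and Ltf (-2.11, SE 0.61) and Retnlg (-2.37, SE 0.27) lay lower in every KO library. With 3 libraries each way, every KO library was higher than every WT library for 21.5% of the 16383 genes tested in GMP, and lower for 20.8%. Since KO against WT in GMP had been used to note members, nothing is read from the 3 higher and 3 lower genes among the 8.

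In KO GMPs the order of the 8 genes by TPM was also another than in WT GMPs. WT GMPs had Ly6c2 first, then F13a1, Ly86, Ccr2, Mgl2, Ctss, Tgfbi and Adgre1. KO GMPs had Ly6c2 first, then Mgl2 at 226 ± 42.5, Tgfbi at 97.8 ± 9.27 and Adgre1 at 38.3 ± 4.72 TPM (SD, n = 3 each), followed by Ccr2, F13a1, Ly86 and Ctss. In WT GMPs the neighbours Ly86 and Ccr2, Ccr2 and Mgl2, and Ctss and Tgfbi differed by less than the larger of their SDs, as did Ccr2 and F13a1, and Ly86 and Ctss, in KO GMPs.

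**Figure D2:**
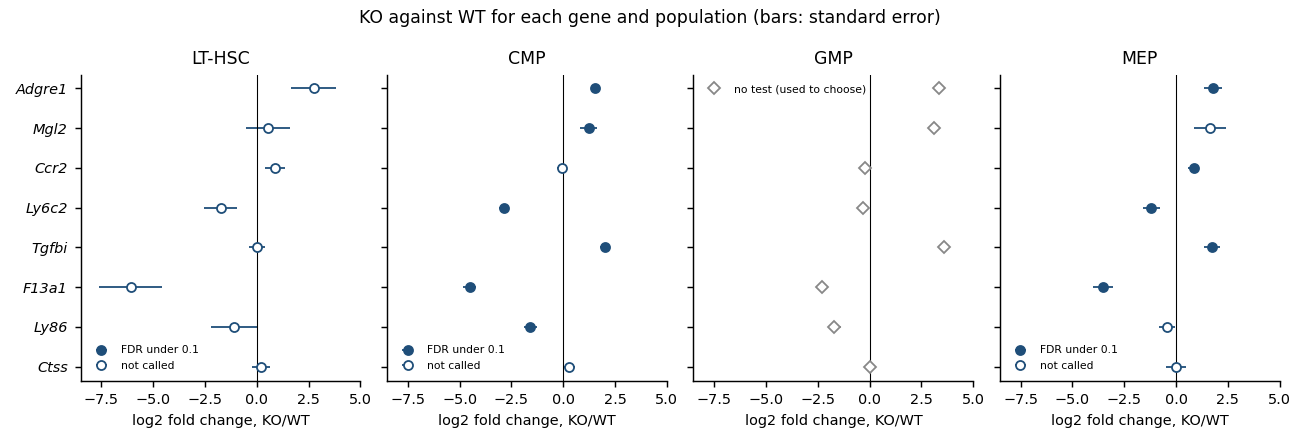
Log2 fold change of KO over WT (edgeR, TMM-normalized counts) for each gene in the 4 populations; bars are standard errors, filled circles passed an FDR of 0.1, open circles did not, and GMP diamonds were not tested. Adgre1 and Tgfbi lie to the right of 0 and F13a1 and Ly6c2 to the left in CMP, GMP and MEP. In MEP, Adgre1, Tgfbi and F13a1 passed the filter on low counts through a single genotype. Their filled circles there are not read as calls.

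CMPs were not the population in which genes had been noted. Their libraries came from the same mice, however, and the 8 genes were chosen with earlier results of these data known. The CMP tests are therefore not independent of the GMP values. In CMP, Adgre1, Tgfbi and Mgl2 rose in KO, and F13a1, Ly6c2 and Ly86 fell. The median log2 fold change of the 8 was 0.13, beside a median of -0.003 over all genes tested. At an FDR under 0.1, these 3 higher genes stand beside 10.6% of the 17214 genes tested in CMP that were higher in KO, and the 3 lower ones beside 12.8% that were lower. Tgfbi had 5.34, 7.49 and 4.81 TPM in WT CMPs of mice 300, 305 and 309 and 23.0, 31.8 and 20.4 TPM in KO CMPs of mice 301, 304 and 308. Its log2 fold change was 1.99 (SE 0.20, edgeR adjusted p = 0.000337), and the groups did not overlap. Adgre1 had 0.748, 0.870 and 1.08 TPM in WT and 2.48, 3.0 and 2.79 TPM in KO, a log2 fold change of 1.51 (SE 0.19, edgeR adjusted p = 0.000998). Adgre1 thus rose from a low level, with 96 to 109 estimated counts per WT library and 234 to 381 per KO library.

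Mgl2 had 1.58, 1.43 and 1.53 TPM in WT CMPs and 2.87, 6.57 and 2.71 TPM in KO CMPs, a log2 fold change of 1.23 (SE 0.40, edgeR adjusted p = 0.0683). KO mouse 304 was the highest, more than double the other KO mice by these values, and its Mgl2 was also the highest in GMP. Without it the log2 fold change of Mgl2 was 0.58 (edgeR adjusted p = 0.177), and without WT mouse 300, 305 or 309 the adjusted p was 0.171, 0.157 and 0.115 in turn (edgeR), so the call for Mgl2 rested on single libraries.

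The 2 largest changes of the 8 genes in CMP were the falls of F13a1 and Ly6c2. F13a1 had 70.2, 135 and 144 TPM in WT CMPs and 4.21, 6.76 and 5.32 TPM in KO CMPs, a 21.4-fold difference of the means. Its log2 fold change was -4.52 (SE 0.31, edgeR adjusted p = 5.20e-05), and it lay between -4.79 and -4.33 over the 6 fits that left out 1 library. Ly6c2 had 74.6, 137 and 136 TPM in WT and 14.7, 14.5 and 18.4 TPM in KO, a 7.30-fold difference of the means and a log2 fold change of -2.86 (SE 0.24, edgeR adjusted p = 0.000159). Ly86 had 34.6, 74.0 and 76.9 TPM in WT and 16.9, 20.1 and 28.7 TPM in KO, a log2 fold change of -1.60 (SE 0.31, edgeR adjusted p = 0.00814). The KO CMPs did not overlap the WT CMPs in any of the 3 genes, although WT mouse 300 lay nearest to KO in each of them.

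Ccr2 and Ctss did not pass the test in CMP. Ccr2 had 19.4, 35.4 and 41.3 TPM in WT and 26.6, 34.1 and 35.3 TPM in KO, a log2 fold change of -0.05 (SE 0.25, edgeR adjusted p = 0.933). Ctss had 18.6, 33.7 and 38.6 TPM in WT and 34.0, 39.9 and 46.1 TPM in KO, a log2 fold change of 0.30 (SE 0.25, edgeR adjusted p = 0.495). For both genes the lowest value was that of WT mouse 300. When the WT and KO mice that stand at the same place in the study's tables were paired as a block, Ctss passed with a log2 fold change of 0.35 (edgeR adjusted p = 0.0672).

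Other marker genes moved in the same CMP libraries. The summed level of 4 primary neutrophil granule genes was 3896 to 4757 TPM in WT and 1698 to 2644 TPM in KO, with 3 of 4 genes lower at an FDR under 0.1, and 4 of 5 basophil and mast cell genes were lower. Of 8 late neutrophil genes 5 were lower and 1 was higher, with sums of 70.8 to 316 TPM in WT, the highest in mouse 300, and 41.6 to 77.9 TPM in KO. Of 4 megakaryocyte genes 3 were lower and 1 was higher, with sums of 723 to 1057 TPM in WT and 549 to 565 TPM in KO, and F13a1 is known to be expressed in megakaryocytes and platelets too. All 5 erythroid genes were higher in KO, with sums of 231 to 280 TPM in WT and 398 to 546 TPM in KO. Of 7 dendritic cell genes tested, 3 were higher and 1 was lower, with sums of 81.8 to 109 TPM in WT and 153 to 244.6 TPM in KO. Beside these counts, 10.6% of all genes tested in CMP were higher and 12.8% lower. The part of such shifts in the changes of the 8 genes was not tested.

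In MEPs all 8 genes were scarce, and the changes concern few reads. The filter on low counts was passed by Ccr2, Ctss and Ly6c2 through both genotypes, by Adgre1, Tgfbi and Mgl2 through KO alone, and by F13a1 and Ly86 through WT alone, so a gene such as Adgre1 or F13a1 could be tested only because it was high in 1 genotype, and the number of calls is not read as a result. Adgre1, Tgfbi and Ccr2 rose in KO, and F13a1 and Ly6c2 fell, where 14% of the 15777 genes tested were higher and 15.4% lower. Adgre1 had 0.0307, 0.0407 and 0.0307 TPM in WT MEPs of mice 300, 305 and 309, from 3 to 4 estimated counts each, and 0.106, 0.148 and 0.101 TPM in KO MEPs of mice 301, 304 and 308, from 12 to 18. Its log2 fold change was 1.78 (SE 0.43). Tgfbi had 0.163, 0.132 and 0.0965 TPM in WT and 0.384, 0.313 and 0.643 TPM in KO, a log2 fold change of 1.74 (SE 0.40). Neither gene overlapped between the genotypes, and both stayed under 1 TPM in KO. With no filter on low counts, which tested 27312 genes, the edgeR adjusted p was 0.0490 for Adgre1 and 0.00749 for Tgfbi.

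F13a1 had 0.324, 0.261 and 0.399 TPM in WT MEPs, from 32 to 53 estimated counts, and 0.0423, 0.00686 and 0.0360 TPM in KO MEPs, from 1 to 6. Its log2 fold change was -3.51 (SE 0.49), and with no filter on low counts the edgeR adjusted p was 0.000114. Ly6c2 had 2.84, 2.54 and 3.11 TPM in WT and 1.41, 0.566 and 1.98 TPM in KO, a log2 fold change of -1.19 (SE 0.41, edgeR adjusted p = 0.0732). Ccr2 had 0.432, 0.496 and 0.649 TPM in WT and 0.750, 0.847 and 1.27 TPM in KO, a log2 fold change of 0.84 (SE 0.27, edgeR adjusted p = 0.0570). In all 3 genes every KO library lay beyond every WT library, but the calls for Ccr2 and Ly6c2 rested on single libraries. Ccr2 was not called without WT mouse 300 (log2 fold change 0.72, edgeR adjusted p = 0.164), KO mouse 304 (0.90, 0.10) or KO mouse 308 (0.57, 0.185). Ly6c2 was not called without WT mouse 300 (-1.21, edgeR adjusted p = 0.141), KO mouse 301 (-1.26, 0.158) or WT mouse 309 (-1.10, 0.175), nor with an offset for transcript length (-1.10, 0.110).

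Mgl2 had 0.209, 0 and 0.133 TPM in WT MEPs and 0.221, 0.560 and 0.440 TPM in KO MEPs, with a log2 fold change of 1.65 (SE 0.77, edgeR adjusted p = 0.172) that did not pass. Without WT mouse 300, whose 13 estimated counts were most of the 16 in WT, the log2 fold change of Mgl2 was 3.19. Mgl2 passed the filter on low counts through KO alone, so no call is read from that fit. Ly86, with a log2 fold change of -0.45 (SE 0.39, edgeR adjusted p = 0.480), and Ctss, with -0.0019 (SE 0.49, edgeR adjusted p = 0.998), had overlapping libraries. Of 4 megakaryocyte genes 3 were higher in these KO MEPs, and of 4 basophil and mast cell genes tested 3 were lower.

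The difference between the KO effect in MEP and that in CMP was tested over the 12 libraries of both populations and the 6 mice, with the mouse as a block. It passed for Ly6c2 (1.56 on the log2 scale, SE 0.40, edgeR adjusted p = 0.0429), Ly86 (1.07, SE 0.29, edgeR adjusted p = 0.0541) and Ccr2 (0.82, SE 0.21, edgeR adjusted p = 0.0398), where 5.86% of the 17859 genes tested passed in that direction. The KO effect on Ly6c2 and Ly86 was less negative in MEP than in CMP, although Ly86 itself did not pass in MEP, and that on Ccr2 was more positive in MEP. None of these 3 calls was left without mouse 308 or without mouse 309, where edgeR adjusted p-values lay between 0.117 and 0.192. Without mouse 301 the call for Ccr2 alone was left, and without mouse 305 that for Ly86 was lost. For F13a1 the difference was 0.93 (SE 0.79, edgeR adjusted p = 0.552), for Mgl2 0.60 (SE 0.90, 0.765), for Adgre1 0.24 (SE 0.35, 0.798), for Tgfbi -0.27 (SE 0.53, 0.829) and for Ctss -0.44 (SE 0.56, 0.713), and none of these passed.

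In LT-HSC, none of the 8 genes passed an FDR of 0.1, at which 0.0792% of the 22733 genes tested were called in either direction. At an unadjusted p under 0.05, 2 of the 8 (Adgre1 and F13a1) differed, as did 5.19% of the genes tested, and DESeq2 called 1 (Adgre1), beside 1.06% of the 23382 genes to which it gave an adjusted p. Adgre1 had 0.382 and 0.186 TPM in WT replicates 1 and 2 and 0.849 and 2.21 TPM in KO replicates 1 and 2, a log2 fold change of 2.74 (SE 1.07, edgeR adjusted p = 0.876). Both KO libraries were higher than both WT libraries. The median log2 fold change of the 8 in LT-HSC was 0.11, where that of all genes tested was shifted to -0.16.

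F13a1 had 0.364 and 13.2 TPM in WT LT-HSC and 0.176 and 0.0118 TPM in KO LT-HSC, a log2 fold change of -6.09 (SE 1.51, edgeR adjusted p = 0.454). Ly86 had 1.04 and 11.3 TPM in WT and 2.63 and 2.80 TPM in KO, with a log2 fold change of -1.08 (SE 1.14, edgeR adjusted p = 0.877). Ly6c2 had 10.6 and 162 TPM in WT and 35.6 and 10.2 TPM in KO, with a log2 fold change of -1.75 (SE 0.82, edgeR adjusted p = 0.876). F13a1, which passed the filter on low counts through WT alone, was lower in both KO libraries than in both WT libraries, while Ly86 and Ly6c2 overlapped. All 3 genes were highest in WT replicate 2, the one with the high late neutrophil genes. Without it the log2 fold change of Ly86 was 1.73 and that of Ly6c2 0.91, and that of F13a1 was -1.62. Over the fits that left out a library, the log2 fold change of F13a1 lay between -8.91 and -1.62. That of Ccr2 lay between 0.47 and 1.47, the highest without WT replicate 2. Each such fit leaves a single library in a genotype, so no call is read from it.

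The other 4 genes were at levels in LT-HSC that did not separate the genotypes in the test. Tgfbi had 11.6 and 18.2 TPM in WT and 15.8 and 10.6 TPM in KO, with a log2 fold change of 0.02 (SE 0.38, edgeR adjusted p = 0.995). Ctss had 16.8 and 26.4 TPM in WT and 26.6 and 17.4 TPM in KO, with a log2 fold change of 0.20 (SE 0.42, edgeR adjusted p = 0.922). Ccr2 had 2.68 and 6.08 TPM in WT and 5.86 and 9.04 TPM in KO, and Mgl2 had 2.19 and 2.0 TPM in WT and 4.51 and 0.795 TPM in KO. The log2 fold changes were 0.88 for Ccr2 (SE 0.47, edgeR adjusted p = 0.876) and 0.55 for Mgl2 (SE 1.07, edgeR adjusted p = 0.917).

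Some of the 8 genes share sequence with relatives, and kallisto divides fragments that match several transcripts among them. Of the 31-base words in the Ly6c2 transcripts 76.2% occurred in no other gene, with 581 words shared with Ly6c1, and of those in Mgl2 77.2% did, with 419 shared with Clec10a, its nearest relative. For Ccr2 the share was 96.5%, and for the other 5 genes it was 99.0% or more. In GMP Clec10a lay lower in KO, while Mgl2 lay higher. Clec10a had 6.03, 6.66 and 5.23 TPM in the GMPs of WT mice and 4.13, 4.33 and 3.57 TPM in those of KO mice, a ratio of mean TPM of 0.672. In counts, which are not scaled for transcript length, its log2 fold change was -1.43 (SE 0.16). In CMP Clec10a had a log2 fold change of 0.16 (SE 0.14, edgeR adjusted p = 0.527). Ly6c1 stayed at or below 2.46 TPM in every GMP library and 0.331 TPM in every CMP library.

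**Figure D3:**
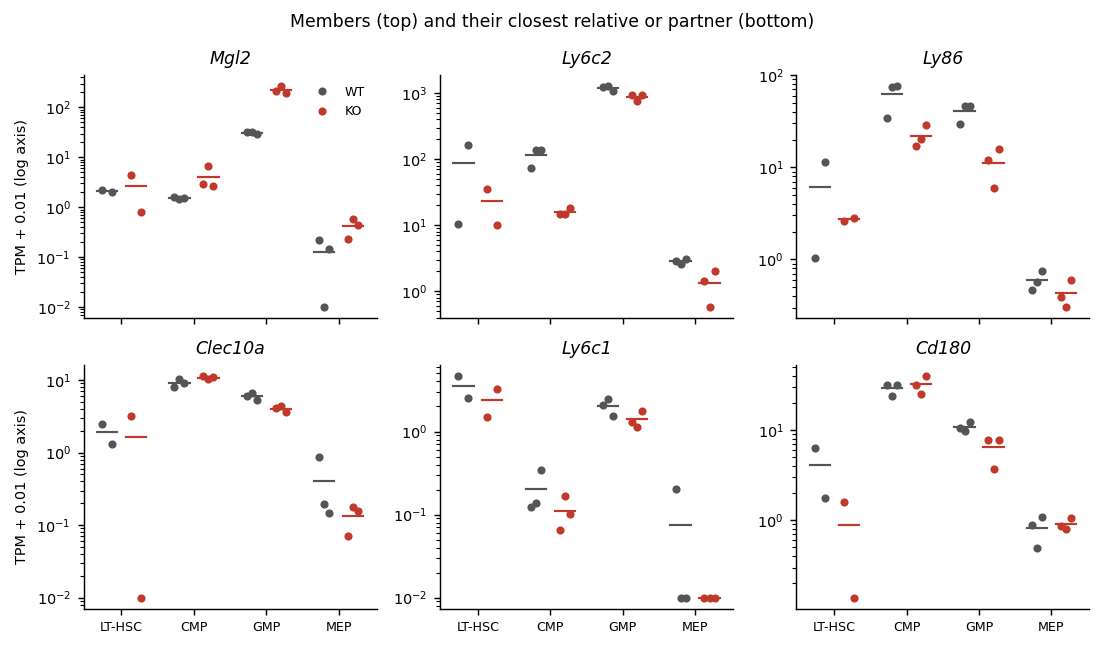
Level of Mgl2, Ly6c2 and Ly86 (top) and of Clec10a, Ly6c1 and Cd180 (bottom) in every library, as TPM + 0.01 on a log axis; points are libraries (WT grey, KO red) and lines are group means. Mgl2 is higher and Clec10a lower in all 3 KO GMP libraries, and Ly86 but not Cd180 is lower in all 3 KO CMP libraries.

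Single transcripts carried most of the estimated counts of most of the genes, and a few changed their share with the genotype, as a description. F13a1-201 held 96.2 to 97.03% of F13a1 in WT CMPs and 90.2 to 100% in KO CMPs, so the fall was a fall of this transcript. Adgre1-202 held 90.2 to 92.4% of Adgre1 in WT GMPs and 92.0 to 96.6% in KO GMPs, and Mgl2-201 held 69.2 to 73.7% and 72.9 to 75.8% of Mgl2. Tgfbi and Ly86 have 1 transcript each in the files. Although the level of Ccr2 did not differ in CMP, its transcript Ccr2-203 held 8.05 to 9.27% of Ccr2 in WT and 15.9 to 17.5% in KO, while Ccr2-202 held 67.4 to 70.2% in WT and 58.0 to 64.1% in KO. Ly6c2-202, annotated as a retained intron, held 4.66 to 7.89% of Ly6c2 in WT CMPs and 15.1 to 19.6% in KO CMPs, where the sum over 3 libraries was 477 and 196 estimated counts. In GMPs the share of Ly6c2-202 was 3.77 to 5.72% in WT and 3.58 to 4.39% in KO.

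The partners of the 8 proteins were not uniform. Cd180, whose product binds MD-1, had a log2 fold change of 0.03 (SE 0.18, edgeR adjusted p = 0.944) in CMP, where Ly86 fell, and of -0.62 (SE 0.25) in GMP. Cd74, the invariant chain that cathepsin S trims, fell in CMP from 9.37, 35.6 and 31.8 TPM in WT mice 300, 305 and 309 to 7.13, 5.17 and 12.1 TPM in KO mice 301, 304 and 308, a log2 fold change of -1.76 (SE 0.48, edgeR adjusted p = 0.0362). The groups overlapped through WT mouse 300. In GMP Cd74 had 17.2, 36.0 and 9.21 TPM in WT and 2.38, 4.05 and 2.47 TPM in KO, a log2 fold change of -2.65 (SE 0.46). Cst3, a secreted inhibitor of cathepsins, had a log2 fold change of 0.97 (SE 0.056) in GMP and 0.22 (SE 0.099, edgeR adjusted p = 0.181) in CMP. Ccl2, the ligand of CCR2, stayed at or below 0.229 TPM in every precursor library.

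Tgfb1, which encodes the cytokine that induces TGFBI, rose slightly in CMP (log2 fold change 0.22, SE 0.059, edgeR adjusted p = 0.0310) and in MEP (0.19, SE 0.063, edgeR adjusted p = 0.0631), and had 0.30 (SE 0.062) in GMP. Its receptor genes did not pass in CMP, with 0.12 for Tgfbr2 (SE 0.16, edgeR adjusted p = 0.700) and -0.03 for Tgfbr1 (SE 0.082, edgeR adjusted p = 0.880). In MEP Tgfbr1 had -0.16 (SE 0.10, edgeR adjusted p = 0.312) and Tgfbr2 -0.03 (SE 0.24, edgeR adjusted p = 0.959). In GMP the log2 fold change was -0.80 for Tgfbr2 (SE 0.16) and -0.098 for Tgfbr1 (SE 0.059).

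Over the whole list of 30 partners and relatives, 24 were tested in CMP. Of these, 6 were higher and 5 lower in KO, beside 10.6% higher and 12.8% lower of all genes tested. Among the higher were Ly96 (1.11, SE 0.20) and Itgb5 (1.05, SE 0.23), and the lowest with Cd74 were Itgb3 (-1.11, SE 0.13) and Adgre5 (-0.31, SE 0.082). Ly96 encodes the MD-2 partner of TLR4, Itgb3 and Itgb5 integrin subunits, and Adgre5 the adhesion receptor CD97. In MEP 21 were tested, with 5 higher. Above 1 TPM these were led by Ctsb (1.11, SE 0.061), Itgav (0.89, SE 0.13) and Ctsl (0.28, SE 0.083), and below 1 TPM Itgb3, which fell in CMP, rose by 1.03 (SE 0.32, edgeR adjusted p = 0.0510). In MEP 2 were lower, Ctsc (-1.01, SE 0.15) and Adgre5 (-0.64, SE 0.17). In GMP, in CPM, 10 of 25 had every KO library above every WT library, among them Itgb5 (1.55, SE 0.26) and Adgre5 (1.02, SE 0.22), and 7 had every KO library below, led by Cd74, Clec10a and Ly6a (-1.36, SE 0.39). Of all genes tested in GMP, 21.5% lay above WT and 20.8% below in this way. The median log2 fold change of the list was 0.08 (CMP), -0.08 (GMP) and 0.01 (MEP), beside -0.003, -0.006 and -0.002 over all genes tested.

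Transcription factors of the monocyte path were among the genes that fell in KO CMPs. Of 10 such regulators tested there, 4 were lower and none was higher, beside 12.8% lower and 10.6% higher of all genes tested. The median log2 fold change of the regulators was -0.21. Klf4 had a log2 fold change of -3.65 (SE 0.63, edgeR adjusted p = 0.00434), from 2.63 to 0.211 mean TPM. Irf8 had 103, 194 and 239 TPM in WT mice 300, 305 and 309 and 59.4, 72.8 and 83.4 TPM in KO mice 301, 304 and 308, a log2 fold change of -1.45 (SE 0.28, edgeR adjusted p = 0.00775). As for Ly86 and F13a1, WT mouse 300 lay nearest to KO. Cebpb followed with -1.28 (SE 0.26, edgeR adjusted p = 0.0105), and the fourth was Zeb2. Spi1 had -0.12 (SE 0.11, edgeR adjusted p = 0.521) in CMP.

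In GMP, 9 regulators were tested. On the CPM scale, every KO library was lower than every WT library for 3 of them, Klf4 (-1.57, SE 0.41), Irf8 (-1.37, SE 0.26) and Zeb2 (-0.82, SE 0.065), and higher for Spi1 (0.60, SE 0.066). Of all genes tested in GMP, 20.8% lay lower and 21.5% higher in this way. The median log2 fold change of the regulators was -0.50 in GMP. In MEP 1 of 7 regulators was higher and 1 lower (Egr1, -1.09, SE 0.20, edgeR adjusted p = 0.00616), with a median of -0.26.

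Other monocyte genes rose and fell in CMP, while in GMP more lay higher than lower. In CMP 22 of a list of 25 were tested, 4 were higher and 6 lower, and the median log2 fold change was -0.20. Among the higher were Itgam (1.92, SE 0.16), which encodes CD11b, and Emilin2 (1.0, SE 0.063), and among the lower Chil3 (-2.26, SE 0.50), Lgals3 (-1.65, SE 0.40) and the Fc receptor gene Fcgr3 (-1.24, SE 0.19). In GMP 21 were tested, 10 had every KO library above every WT library and 1 (Cd68, -1.12, SE 0.14) below, and the median was 0.60. Of all genes tested in GMP, 21.5% lay above and 20.8% below in this way. Itgam (2.96, SE 0.16), Hp (haptoglobin, 2.32, SE 0.12) and Cx3cr1 (1.85, SE 0.12) had the highest log2 fold changes among those without overlap. The list did not move as a whole, and Csf1r (-0.61, SE 0.19) and Cd14 (-0.77, SE 0.28) had negative values with overlapping libraries. In MEP 16 were tested, with 2 higher, of which Ifi30 (0.77, SE 0.20) was above 1 TPM, and 3 lower, of which Emilin2 (-0.33, SE 0.056) was, and the median was -0.08.

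Some genes of tissue macrophages lay lower in KO GMPs, where Adgre1 and Mgl2 lay higher. Of 12 tested, none had every KO library above every WT library and 6 had every KO library below, where 20.8% of all genes tested lay below and 21.5% above. Above 1 TPM these were Vcam1 (-1.74, SE 0.25), Apoe (-1.54, SE 0.16) and Cd163 (-0.74, SE 0.20), and below 1 TPM Mrc1, Spic and C1qa. The median log2 fold change was -0.50. The summed TPM of the list was 201 to 241 in WT GMPs and 67.7 to 98.8 in KO GMPs. Most of this sum was Apoe, with a mean of 173 TPM in WT and 53.7 in KO. In CMP 14 were tested, 1 was higher (Slc40a1, the iron exporter, 1.07, SE 0.12) and 2 lower, of which Spic (-0.67, SE 0.23) was above 1 TPM, with a median of 0.05. In MEP 6 were tested, 1 was higher (Slc40a1, 0.46, SE 0.059) and 2 lower, led among those above 1 TPM by Apoe (-1.76, SE 0.25). In LT-HSC none of the genes of the 4 lists passed an FDR of 0.1.

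**Figure D4:**
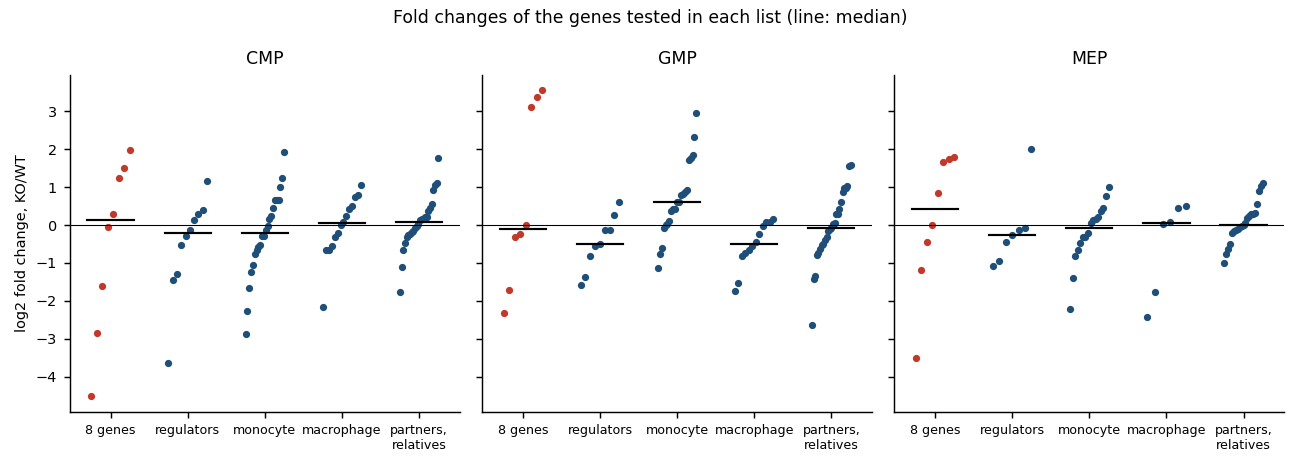
Log2 fold change of KO over WT for the 8 genes (red) and for the tested genes of 4 lists (blue) in CMP, GMP and MEP; each point is a gene and the line is the median of the list. In GMP the medians are 0.60 for monocyte genes and -0.50 for both regulators and macrophage genes.

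Marker genes of granulocytes also moved in the GMP libraries in which the 8 genes were described. All 4 primary neutrophil granule genes had every KO library above every WT library, with sums of 29968 to 35174 TPM in WT and 39302 to 44433 TPM in KO. Of 8 late neutrophil genes 3 had every KO library above and 2 below, with sums of 179 to 376 TPM in WT and 708 to 1949 TPM in KO. All 4 eosinophil genes had every KO library below every WT library, with sums of 3876 to 8747 TPM in WT and 1074 to 2106 TPM in KO, as had all 5 basophil and mast cell genes, with 771 to 1239 and 124 to 173 TPM. Such a position above WT was held by 21.5% of all genes tested in GMP, and one below by 20.8%. The part of these shifts in the values of Adgre1, Mgl2, Tgfbi, F13a1 and Ly86 was not tested.

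**Figure D5:**
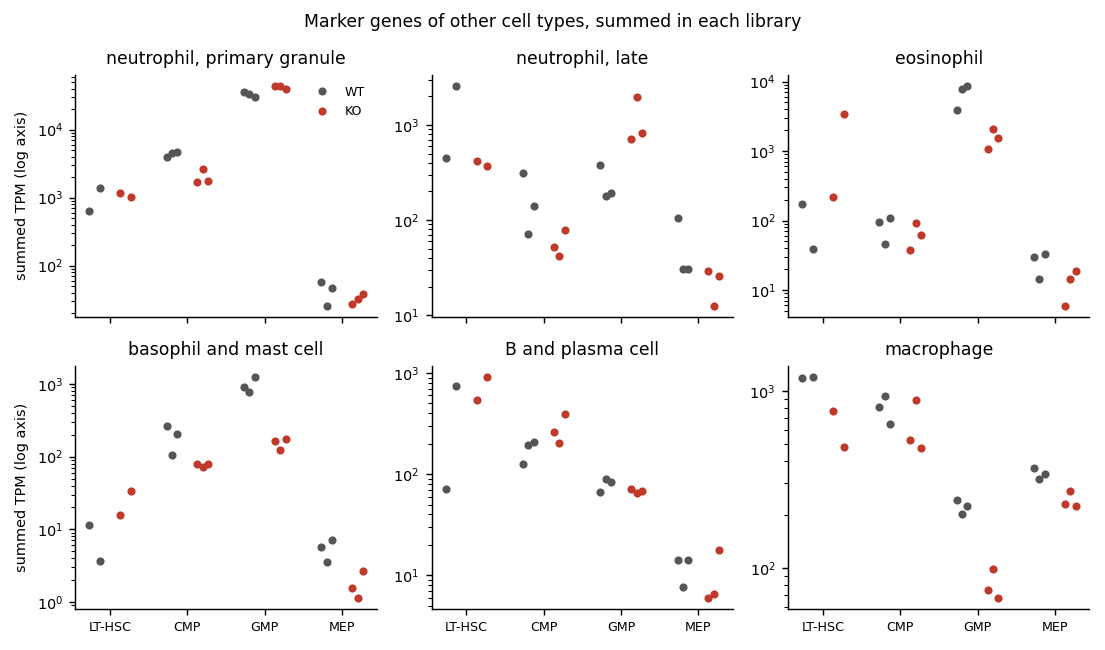
Summed TPM (log axis) of marker genes of 6 cell types in every library, by population and genotype (WT grey, KO red). WT replicate 2 of LT-HSC is the highest in late neutrophil genes, and basophil and eosinophil sums are lower in all KO than in all WT GMP libraries.

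Across the 18 precursor libraries, the 8 genes fell into patterns that were shared with different genes. These correlations of log2 CPM are descriptions over libraries that differ mainly by population and share mice, among 14140 genes. Adgre1 was most like Tctex1d2 (Pearson r = 0.991), Wdfy1 (0.988) and Id1 (0.987), Tgfbi most like Itgam (0.986), Trafd1 (0.985) and Lst1 (0.983), and Mgl2 most like Pglyrp1 (0.983), Plin3 (0.983) and C3 (0.982). Adgre1 was also close to Tgfbi (0.968) and Mgl2 (0.963), and Tgfbi and Mgl2 had r = 0.894. The 18 libraries include the GMP libraries in which Adgre1, Tgfbi and Mgl2 had been noted for higher RNA in KO. Their likeness was therefore built in part by the choice of genes, and nothing is read from it. Some other pairs lay above Tgfbi and Mgl2 too, such as Ccr2 and Ly86 (0.956), Ccr2 and Ctss (0.945), and F13a1 and Ly86 (0.944). Ly86 was most like Irf8 (0.991), Slc2a6 (0.988) and Hpse (0.988), and Ccr2 most like Ms4a6c (0.992), Stox2 (0.991) and St8sia4 (0.989). F13a1 was most like Map7d1 (0.985), Met (0.985) and Tmem110 (0.983), Ctss most like Pld4 (0.986), Hrh2 (0.985) and Bcl2 (0.985), and Ly6c2 most like Ldlrad3, Papss2 and Hvcn1 (0.990 each). The lowest correlation between 2 of the 8 genes was that of Mgl2 and Ctss (0.550).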

How the data were processed

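RNA of FACS-sorted bone marrow cells was sequenced from 22 libraries, made with SMART-Seq v4 for LT-HSC and TruSeq for CMP, GMP and MEP. Per transcript, the authors deposited an estimated count, a TPM value and an effective length, obtained with kallisto 0.43.1 on the Ensembl 84 annotation, in which fragments matching several transcripts are divided among them. They named DESeq2 1.18.1 for their own tests. Estimated counts and TPM were summed here over the transcripts that GENCODE vM21 (GRCm38) pairs with a gene (99.2%), and counts were rounded. Genotypes were compared within each population by edgeR 4.0.16 in R 4.3.3 (filterByExpr, TMM, quasi-likelihood), with p-values adjusted over all genes tested (Benjamini-Hochberg) and an FDR of 0.1. WT populations and the difference of KO effects were fitted with a term for each mouse. Standard errors were derived from each log2 fold change and its F statistic. All 8 genes passed the filter in every population.

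The 8 genes and all lists were chosen with earlier results of these data known. Genes named from 4 lists are the 3 highest and 3 lowest log2 fold changes among those called with a mean of at least 1 TPM in 1 genotype, plus fixed partners, and a few genes that this rule names are not reported here. Alternatives tried were DESeq2 1.42.0 and its size factors, all genes without a filter, a length offset, limma 3.58.1 on log2(TPM + 1), a replicate block or none, and each library or mouse left out. Precursor replicates are separate mice, while for LT-HSC no source used here says which mice gave which sample, so that spread may be technical in part. For the replicate block, WT and KO mice were paired by their place in the study's tables. The correlation of the deviations of a pair over genes was 0.296 to 0.448 in CMP, 0.387 to 0.482 in GMP and -0.035 to 0.436 in MEP. Mice of different pairs were not compared in this way, so these values do not decide whether the pairing holds. The main comparisons of genotypes had no term for the pair.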

Additional observations from a re-analysis of the deposited data

Results flagged for a closer look

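The effect of KO differed between MEP and CMP by the test of the difference itself for 3 of the 8 genes. The KO effect in MEP less that in CMP was 1.56 on the log2 scale for Ly6c2, 1.07 for Ly86 and 0.82 for Ccr2 (edgeR adjusted p = 0.0429, 0.0541 and 0.0398). In MEP these genes were measured at 14 to 187 estimated counts per library for Ly6c2 and Ccr2 and 9.57 to 21.9 for Ly86, against at least 308 in CMP, and the calls were lost without mouse 308 or 309 as given above. The cause of the difference was not tested.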

How the results depend on the processing

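The number of the 8 genes called in LT-HSC was 0, where 18 of all 22733 genes tested were called. It was 2 with no filter on low counts, where 286 of 38182 were called, and 1 with DESeq2, where 1.06% of 23382 were. For the KO effect in MEP less that in CMP it was 3, where 2460 of 17859 genes were called in either direction. It was 5 with limma on log2(TPM + 1), where 3203 were called, and 1 with no replicate block, where 1879 were. Without each mouse in turn it was 0 to 3, where 1419 to 2848 genes were called. On the log2(TPM + 1) scale, whose pseudocount exceeds the MEP levels, that difference turned to -0.87 for Adgre1 and -0.59 for Mgl2. Other values that changed sign belonged to genes that were not called: Tgfbi in LT-HSC (-0.15 with limma), Ccr2 in CMP (0.055 with limma, 0.0060 with the replicate block) and Ctss in MEP (0.0043, 0.0021, 0.0023, 0.0075 and 0.0038 with size factors, no filter, length offset, DESeq2 and limma). With 1 library left out, log2 fold changes crossed 0 in LT-HSC for Tgfbi (-0.36 to 0.54), Mgl2 (-1.12 to 1.33), Ly86 (-1.96 to 1.73), Ctss (-0.17 to 0.73) and Ly6c2 (-2.60 to 0.91), in CMP for Ccr2 (-0.32 to 0.19), in MEP for Ctss (-0.51 to 0.34) and in the difference of MEP and CMP for Tgfbi (-0.80 to 0.13) and Ctss (-0.86 to 0.31). The causes were not tested. The pairing of WT and KO mice as a replicate block changed 1 call of the 8 genes in CMP, that of Ctss (0.35), and none in LT-HSC or MEP. Without one library an LT-HSC group has a single sample, which is assumed to vary like the others. Precision is limited by 2 LT-HSC libraries a group and by at most 53 counts a library for Adgre1, F13a1 and Mgl2 in MEP.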
